A study of Rattus norvegicus with 40 samples.

Results

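The comparison set 30 min against 10 min of ischemia followed by reperfusion in cultured neonatal rat ventricular myocytes (NRVMs), the heart muscle cells of newborn rats. The 8 arrays were all those whose titles give ischemia+reperfusion at 30 min (4 arrays) or at 10 min (4 arrays), of 40 arrays and 10 groups in the series. Both groups held 2 duplicates from each of 2 cell preparations, and the same 2 preparations supplied every group. The ischemia was made by coverslip hypoxia, in which a cover glass over the cultured cells limits their exchange with the medium; the titles do not say how the minutes divide between ischemia and reperfusion, and no drug, genotype or other agent is named. The groups at 30 min and 10 min of ischemia alone (8 arrays) served for comparison, and the 0, 60 and 120 min groups place the values in time. Whether duplicates were separate dishes or repeat arrays of the same RNA is not stated, so fits that take arrays as samples may measure technical spread only. The main test averages duplicates and rests on the spread between preparations, pooled over all 10 groups. Rat strain and the purity of the cultures are not stated either.

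When oxygen falls, the prolyl hydroxylases that mark the hypoxia-inducible factor HIF-1α for destruction slow down, and HIF turns on genes for glycolysis, glucose uptake, blood vessel growth and its own feedback. When oxygen and medium return, HIF is degraded again within minutes, while stress signals such as immediate early transcription factors and heat shock proteins can follow. Heart muscle depends on oxygen for nearly all of its ATP, and these gene classes are commonly followed in models of ischemia and reperfusion.

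Probe set values are log2 of the quantile-normalized intensity plus 16, and differences are 30 min minus 10 min on that scale, so they understate the change of dim probe sets. Without quantile normalization, on the deposited scale, the median of all probe sets was -0.19 in preparation 1 and -0.21 in preparation 2, and list directions on that scale are given relative to those medians. The medians of the deposited intensities of the 8 arrays ran from 126.9 to 170.7. The 10 min array of preparation 2, duplicate 1, stood apart: its values, centred over all arrays, correlated at 0.43 with the 0 min group of the same arm, at 0.11 with the other 10 min arrays and at 0.10 with its own duplicate. Results that rest on it are given with and without it. Of the 4 arrays at 30 min, 3 correlated better with another time of the arm than with their own group, 2 of them with 60 min and 1 with 10 min. Of the 4 arrays at 10 min, 3 did so as well, the array that stood apart with 0 min and 2 others, by smaller margins, with 30 min. Cardiomyocyte markers were present as labelled: 24 of 25 were tested, and their summed intensity lay between 189530 and 203084 in the 8 arrays.

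No probe set differed between 30 and 10 min at an adjusted p under 0.05. In limma's moderated test over 18625 probe sets, 0 were called (0%), and the smallest adjusted p was 0.80. At an unadjusted p under 0.05 there were 862 probe sets (4.63%), 560 of them higher at 30 min (3.01%) and 302 lower (1.62%). That split turned with the scaling, to 443 higher and 520 lower with arrays centred on the median and to 34 higher and 3015 lower on the deposited scale, where the median of all probe sets was -0.21; neither gave a call. The 4 arrays of one time lay wholly above the 4 of the other for 875 probe sets (4.7%), 569 higher at 30 min and 306 lower. Without the 10 min array that stood apart, limma again called 0, with 1036 at an unadjusted p under 0.05 and a smallest adjusted p of 0.53, and 655 probe sets were under 0.05 in both fits. A missed threshold does not show that the groups were alike. The intervals rest on quantile normalization and on a spread pooled over all 10 groups. They are too narrow where the preparations disagree, so they bound only in part what could have been missed. The 95% interval had a median half-width of 0.26 log2 units, a 1.20-fold change. It lay within ±0.5 for 72.3% of probe sets and within ±1 for 95.7%. Only 21 probe sets had a difference of more than 1 log2 unit in either direction, 8 higher and 13 lower.

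The differences in the 2 preparations did not go together across probe sets. Over all probe sets, the difference in preparation 1 and that in preparation 2 had the same sign in 46.6%, with a correlation of -0.09 across probe sets, which are not independent and share arrays and normalization. In ischemia alone the same 30 against 10 min step gave 61.7% and 0.35. Without the array that stood apart the correlation in ischemia+reperfusion was 0.06. In a fit that gave every group and preparation its own mean and took arrays as samples, chosen after the values were seen, the difference between the preparations passed in 0 probe sets (0%), with 1952 at an unadjusted p under 0.05 (10.5%). Without that array 1109 were under 0.05 (5.95%) and 1 was called (0.00537%). It was Uncx, a homeobox transcription factor gene named here after its values were seen, whose log2 values at 10 min were 8.30, 8.23 and 8.22 with a single array at 6.39.

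**Figure D1:**
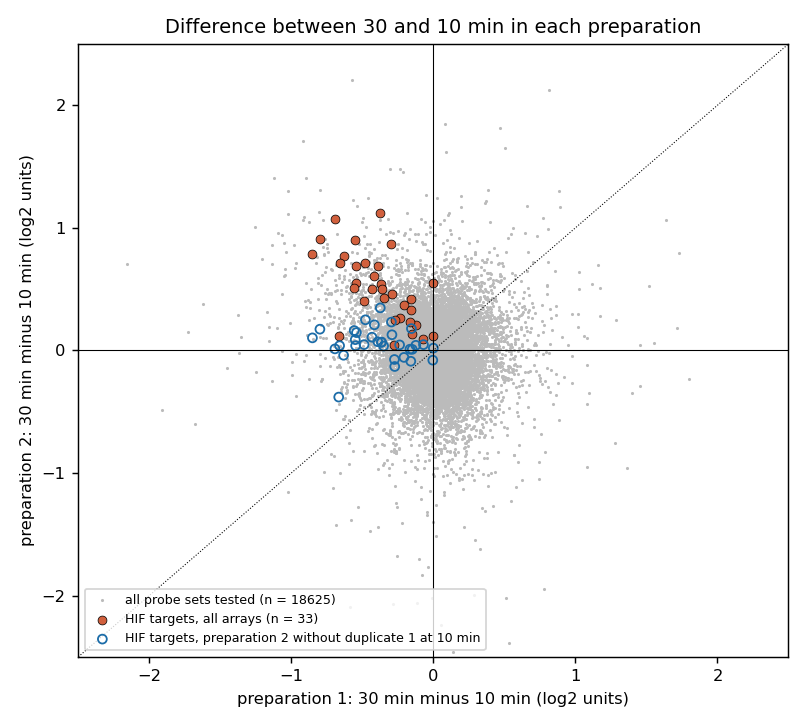
Each point is a probe set, with its 30 minus 10 min log2 difference in preparation 1 on the horizontal axis and in preparation 2 on the vertical axis; grey points are all 18625 tested (4 lie outside the range), filled points the 33 HIF targets, open circles the same genes without duplicate 1 of preparation 2 at 10 min, and the dotted line marks equality. All 33 filled points lie left of zero and above it, and the open circles fall towards zero on the vertical axis.

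With all 8 arrays, HIF targets had the widest gap between the preparations among the gene lists. Without the array that stood apart the macrophage and leukocyte markers had the widest, from -0.13 to 0.40. Preparation 2 at 10 min then rested on 1 array, in which the summed intensity of these markers was the lowest of the 8. Of 38 listed targets, 33 were tested, and 0 were called or reached an unadjusted p under 0.05, with a median difference of 0.06. In preparation 1 all 33 were lower at 30 min than at 10 min, with a median of -0.37, and in preparation 2 all 33 were higher, with a median of 0.50. With arrays centred on the median instead, 32 were lower in preparation 1 and 33 higher in preparation 2. On the deposited scale 33 were lower and 27 higher, or 31 and 33 relative to all probe sets, so the opposite directions held under each scaling, while the members above zero over both preparations numbered 26, 21 with arrays centred and 3 on the deposited scale (25 relative to all probe sets). Both 30 min arrays of preparation 1 lay under both of its 10 min arrays for 30 of the 33, against 19.6% of all probe sets. In preparation 2, the 10 min array of duplicate 1 was the lowest of all 8 for 30 of the 33, against 13.5% of all probe sets. Without it, preparation 2 had a median of 0.05, with 26 members higher and 7 lower, and the median over both preparations became -0.15. The difference between the preparations was at an unadjusted p under 0.05 in 22 of the 33 targets, against 10.5% of all probe sets, but passed adjustment in none (smallest adjusted p 0.17); without the array that stood apart it was under 0.05 in 10 of the 33, against 5.95% of all probe sets.

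Ankrd37, Ddit4, Vegfa and Slc2a1 show the pattern array by array; they were picked after their values were seen. Ankrd37, an ankyrin repeat gene known as a direct HIF target, had log2 values at 10 min of 8.77 and 8.47 in preparation 1 and of 6.51 and 8.63 in preparation 2. At 30 min the values were 8.05 and 7.80 in preparation 1 and 8.67 and 8.62 in preparation 2. So 2 of the 4 arrays at 10 min lay inside the range of 30 min, 1 lay just above it and 1 far below it. The mean difference was 0.19 ± 0.38 (SE, n = 2 preparations), and -0.34 without the low array. Every SE given here is limma's, with a spread taken from all 10 groups. It is not the spread of these 2 preparations and is too small where they disagree, as for Ankrd37 at -0.69 and 1.08. Ddit4, which restrains the growth kinase mTORC1 under stress, had 11.91, 11.50, 9.97 and 11.59 at 10 min. At 30 min Ddit4 had 11.27 and 10.88 in preparation 1 and 11.78 and 11.32 in preparation 2. The groups overlapped, and the difference of 0.07 ± 0.27 (SE, n = 2) became -0.34 without the low array. Vegfa, the vascular endothelial growth factor A gene, had 12.51, 12.28, 11.57 and 12.43 at 10 min and 11.96, 12.09, 12.53 and 12.47 at 30 min. Its difference was 0.07 ± 0.16 (SE, n = 2), and -0.15 without the low array. Slc2a1, the glucose transporter GLUT1, had 12.14, 11.88, 11.13 and 11.93 at 10 min and 11.75, 11.43, 12.17 and 12.09 at 30 min, again with the lowest value in the same array.

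Ankrd37 and Ddit4 were among the 30 of 33 HIF targets lowest in the 10 min array that stood apart, so that pattern did not single them out. Their promoters are shown as 2 examples that hold the core ACGTG of the hypoxia response element, where HIF binds DNA. Each is the 250 bases before the RefSeq transcription start on the GRCr8 build, written along the strand of the gene, with matches to ACGTG on either strand in capitals. Ankrd37 lies on the plus strand at chr16:53001257-53001506, and Ddit4 on the minus strand at chr20:28437038-28437287.
Ankrd37: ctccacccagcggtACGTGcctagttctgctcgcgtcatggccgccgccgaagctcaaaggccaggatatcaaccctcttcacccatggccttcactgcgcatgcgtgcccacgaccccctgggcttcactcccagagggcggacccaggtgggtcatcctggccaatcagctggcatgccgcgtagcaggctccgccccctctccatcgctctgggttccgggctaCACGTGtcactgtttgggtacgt
Ddit4: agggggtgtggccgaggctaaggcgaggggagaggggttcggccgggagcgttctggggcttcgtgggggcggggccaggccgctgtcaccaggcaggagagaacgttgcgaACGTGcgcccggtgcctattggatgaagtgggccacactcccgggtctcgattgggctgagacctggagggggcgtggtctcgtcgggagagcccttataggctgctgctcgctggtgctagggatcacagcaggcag
Ankrd37 held 3 matches, 236, 23 and 22 bases before the start, the last 2 being the overlapping strands of a palindromic E-box (CACGTG). Ddit4 held 1, at 138 bases, and Vegfa held 0 in its window. The core was present in 15 of the 26 HIF target promoters that could be matched (57.7%) and in 4653 of 27457 rat promoters of the same length (16.9%). A match is a string of letters and not a measured binding site.

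The level of the whole HIF list in each array of the arm was taken as the median, over members, of the value minus that member's mean over the 20 arrays. It was -0.57, -0.68, -0.65 and -0.66 at 0 min. At 10 min it was 0.44 and 0.21 in preparation 1 and -0.47 and 0.33 in preparation 2. At 30 min it was 0.09 and -0.03 in preparation 1 and 0.50 and 0.41 in preparation 2. All 10 min arrays therefore lay above all 4 at 0 min. The array of preparation 2, duplicate 1, lay only just above them, and the other 3 lay far above. At 60 min the list level was 0.26 and -0.28 in preparation 1 and 0.37 and 0.12 in preparation 2. Those duplicates of preparation 1 lay further apart than any of its arrays at 10 and 30 min. At 120 min the levels ran from 0.13 to 0.22.

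**Figure D2:**
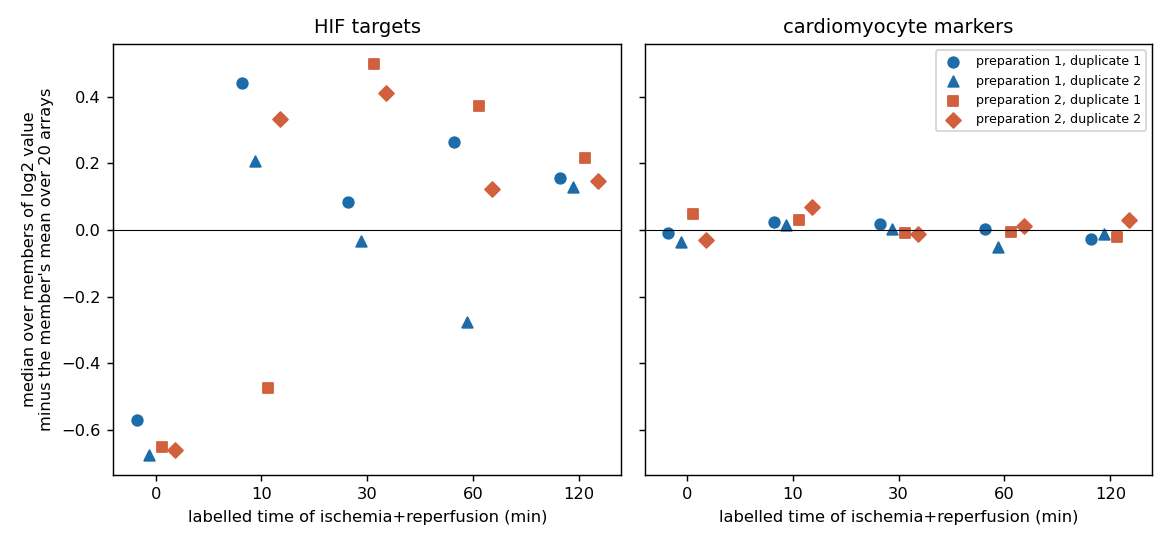
For the HIF targets (left) and the cardiomyocyte markers (right), the vertical axis gives the median over members of the log2 value minus the member's mean over the arm's 20 arrays, against the labelled time in min; each point is 1 array, with colour for preparation and shape for duplicate. At 10 min, 1 array at -0.47 lies just above the 0 min arrays for the HIF targets, while the cardiomyocyte markers stay near zero in all arrays.

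Genes regulated downstream of oxygen and sterol sensing showed smaller gaps. Of 18 glycolytic enzymes and transporters tested, 0 were called and 0 were under an unadjusted 0.05, with medians of -0.09 in preparation 1 and 0.15 in preparation 2 (-0.23 and 0.0066 on the deposited scale). Without the array that stood apart the preparation 2 median was 0.011, with 11 higher and 7 lower. Eno3, muscle enolase, had the smallest p in this list, with a difference of 0.27 ± 0.13 (SE, n = 2). The 21 tested genes of sterol synthesis, which depends on molecular oxygen, had 0 calls, with medians of 0.06 in preparation 1, which turned to -0.18 on the deposited scale and -0.016 with arrays centred, and -0.18 in preparation 2, which kept its sign under both. Without the array that stood apart the preparation 2 median was -0.011, with 10 higher and 11 lower. Their list level was 0.31 in the 10 min array that stood apart against -0.27, -0.14 and -0.08 in the other 10 min arrays, and 0.26 to 0.60 at 0 min. Dhcr7, the last enzyme of cholesterol synthesis, had 9.83 in that array and 9.12 to 9.43 in the other 3. Txnip, which binds thioredoxin and limits glucose uptake, had 12.01 there and 10.94 to 11.26 in the other 3, and its difference moved from -0.30 to -0.11 without that array.

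Immediate early genes, transcription factors and signalling genes induced without new protein synthesis, had mostly positive differences, without a call. Of 40 tested, 29 had a difference above zero and 11 below, against 9297 above and 9328 below among all probe sets, and the count above zero was 26 with arrays centred on the median and turned to 8 on the deposited scale, where 30 lay above the median of all probe sets; 0 were called and 2 were higher at an unadjusted p under 0.05. The median was 0.10, with 0.04 in preparation 1 and 0.14 in preparation 2, and 0.07 without the array that stood apart. The list level was -0.18, -0.14, -0.20 and -0.22 at 10 min, and -0.11, -0.09, -0.09 and -0.05 at 30 min, so these levels did not overlap. The summed intensities of the list did, at 52952 to 57082 at 10 min and 56464 to 61871 at 30 min. The 2 preparations gave the same sign in 20 of the 40 members, against 46.6% of all probe sets. This list level is the same measure as for the HIF targets. At 60 min the list level ran from 0.11 to 0.19.

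The 2 members with the smallest p were Zfp36 and Csrnp1. Zfp36, which destabilizes AU-rich messenger RNAs, had 10.03, 10.06, 10.10 and 10.14 at 10 min and 10.20, 10.28, 10.40 and 10.41 at 30 min, with no overlap; the difference was 0.24 ± 0.08 (SE, n = 2; limma adjusted p = 1.00). Csrnp1, a nuclear protein gene, had 9.14, 9.41, 8.94 and 9.23 at 10 min and 9.52, 9.49, 9.49 and 9.94 at 30 min. The Csrnp1 difference was 0.43 ± 0.17 (limma adjusted p = 1.00), and 0.36 without the array that stood apart. That array held the lowest Csrnp1 value. Fos, the AP-1 subunit, had 8.89, 9.12, 8.73 and 8.73 at 10 min and 9.09, 8.96, 8.71 and 8.92 at 30 min. Its arrays overlapped, with a difference of 0.05 and a 95% interval from -0.39 to 0.50, and the mean at 60 min was 10.07. Egr1, a zinc finger factor, had a difference of -0.06 with an interval from -0.37 to 0.25.

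Among the heat shock genes, Hspa1a, which encodes an inducible HSP70 chaperone, had the largest difference. Its log2 values were 9.19, 9.32, 9.26 and 9.38 at 10 min and 9.72, 9.73, 9.60 and 10.30 at 30 min, so that every 30 min array lay above every 10 min array. The limma difference was 0.55 ± 0.59 (SE, n = 2; adjusted p = 1.00), with a standard error that the fit takes from all groups. At 60 min the mean was 12.95, from 12.76 to 13.04, and at 120 min the arrays ran from 9.75 to 13.25. The other members stayed close to zero: of 21 heat shock and co-chaperone genes tested, 17 were above zero (18 with arrays centred, but 2 on the deposited scale, where 20 lay above the median of all probe sets), with a median of 0.04, and 0 were called or under an unadjusted 0.05. Dnaja1, an HSP70 co-chaperone, had a difference of 0.16 ± 0.14 (SE, n = 2) and 0.45 in the next step from 30 to 60 min. The 31 endoplasmic reticulum stress and ATF4 targets had a median of 0.02 and 0 calls. The 21 NRF2 and antioxidant genes had a median of 0.09, with 19 above zero (3 on the deposited scale, where 19 lay above the median of all probe sets) and 0 called. Hmox1, heme oxygenase 1, was counted among the HIF targets and had 12.35, 12.21, 11.01 and 12.56 at 10 min and 11.86, 11.95, 12.74 and 13.07 at 30 min, lower in preparation 1 by 0.37 and higher in preparation 2 by 1.12. Without the array that stood apart the preparation 2 difference of Hmox1 was 0.35, and its mean difference turned from 0.37 to -0.014.

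Across all 23 pathway lists, 571 distinct genes were tested, 0 were called, and 10 were at an unadjusted p under 0.05 (1.75% against 4.63% of all probe sets), 8 higher and 2 lower at 30 min. List medians ran from -0.05 to 0.10, and the 95% interval lay within ±1 for 95.8% of these genes. Besides Zfp36 and Csrnp1, the higher members were Nfkbia, Gnai2, Psmd4, Kmt2d, Cdkn1a and Tfeb. Nfkbia, the inhibitor of NF-kB, had 9.55, 10.03, 9.11 and 9.72 at 10 min against 9.96, 9.87, 9.96 and 9.95 at 30 min, and its difference of 0.34 ± 0.13 (SE, n = 2) was 0.18 without the array that stood apart. Gnai2, an inhibitory G protein subunit, had 0.27 ± 0.08 (limma adjusted p = 0.95), the lowest adjusted p in the pathway lists. Cdkn1a, the cell cycle inhibitor p21, had 10.42, 10.66, 10.94 and 10.65 at 10 min and 11.04, 10.97, 10.91 and 11.20 at 30 min. Only the highest 10 min array passed the lowest 30 min array, and the difference was 0.36 ± 0.14 (SE, n = 2). Tfeb, the transcription factor of lysosome genes, and Psmd4, a proteasome subunit, had differences of 0.15 each, without overlap. Kmt2d, a histone methyltransferase gene, had 0.58 ± 0.19 (SE, n = 2), and 0.36 without the array that stood apart.

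The lower members were Per2 and Srsf10. Per2, a repressor of the circadian clock, had 8.78, 8.98, 8.55 and 8.84 at 10 min and 8.39, 8.78, 7.95 and 8.02 at 30 min, a difference of -0.50 ± 0.18 (SE, n = 2). Its 2 lowest arrays were both from preparation 2 at 30 min. Srsf10, a splicing factor, had -0.24 ± 0.11 (SE, n = 2). Contractile and metabolic genes lay near zero: 10 natriuretic and fetal cardiac genes had a median of 0.00, 35 oxidative phosphorylation genes 0.02, 24 fatty acid oxidation genes 0.03 (-0.03 without the array that stood apart) and 23 calcium handling and channel genes -0.01 (-0.05 without it), each with 0 calls. In the oxidative phosphorylation list 29 of 35 were lower in preparation 1 and 30 of 35 were higher in preparation 2, by medians of -0.06 and 0.07; on the deposited scale 35 were lower in preparation 1 and only 6 higher in preparation 2, or 24 and 35 relative to all probe sets. Without the array that stood apart the preparation 2 median was 0.031, with 26 higher, and the median over both preparations -0.0083. Cell cycle and DNA replication genes, 35 tested, had medians of 0.07 in preparation 1, which turned to -0.13 on the deposited scale, and -0.16 in preparation 2, which was -0.081 without the array that stood apart.

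**Figure D3:**
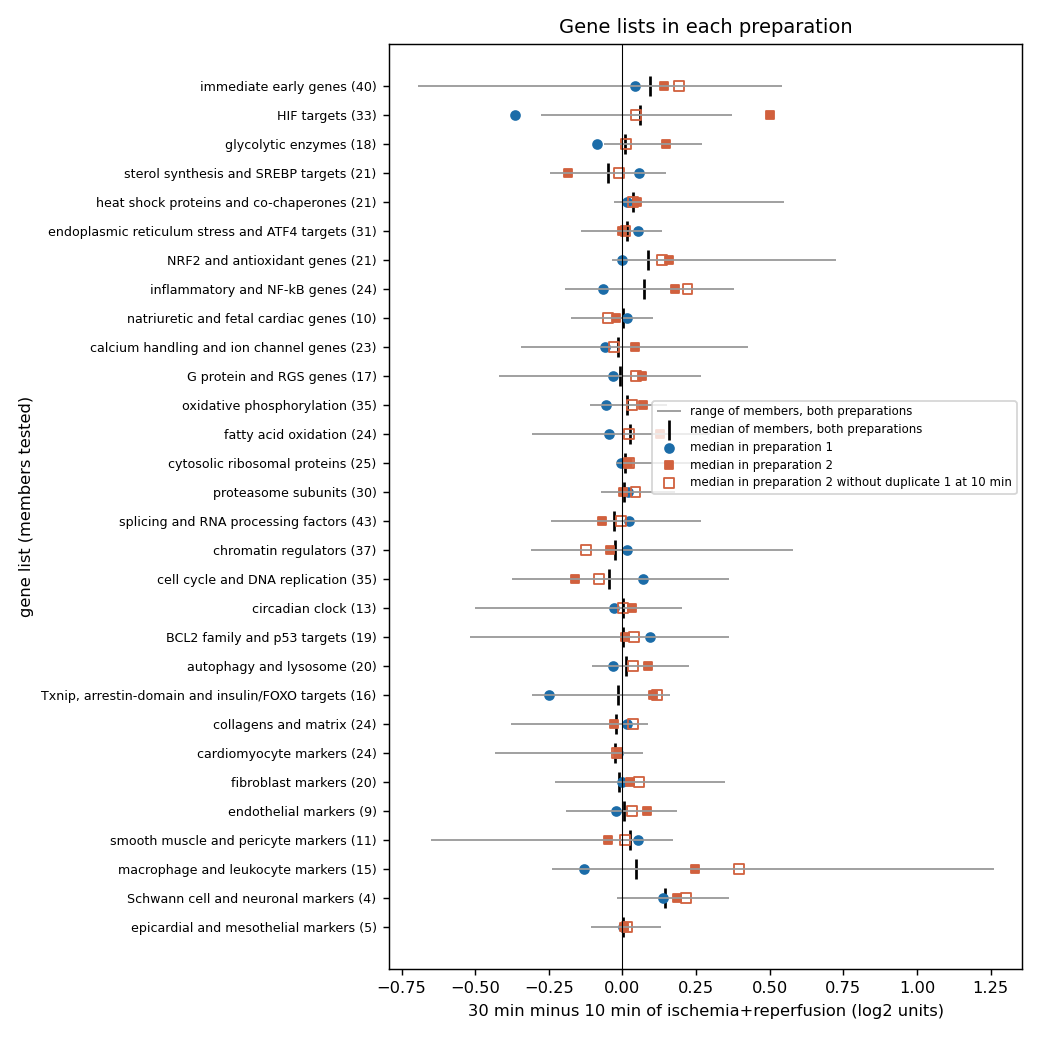
Each line is a gene list with the number of members tested; the horizontal axis gives the 30 minus 10 min log2 difference, the grey line the range of the members over both preparations, the tick their median, and the symbols the median in preparation 1, in preparation 2 and in preparation 2 without duplicate 1 at 10 min. With all 8 arrays the HIF targets have the widest gap between the preparations, from -0.37 to 0.50. Without that array they run from -0.37 to 0.05, and the macrophage and leukocyte markers have the widest, from -0.13 to 0.40. Preparation 2 at 10 min is then 1 array, the one of the 8 with the lowest summed intensity of those markers.

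Cell type markers gave 0 calls; in such bulk cultures fewer cells of a type and less RNA per cell cannot be told apart. The 24 cardiomyocyte markers had a median of -0.03, with 0 under an unadjusted 0.05. Ttn, titin, had 11.72, 11.58, 11.74 and 12.19 at 10 min and 11.49, 11.41, 11.39 and 11.20 at 30 min, without overlap, at a difference of -0.43 ± 0.22 (SE, n = 2). The 20 fibroblast markers had a median of -0.01, with summed intensities from 69127 to 80101 at 10 min and from 71252 to 80482 at 30 min, so RNA of fibroblasts was present throughout. The 9 endothelial markers summed to 3401 to 4361 at 10 min and 3705 to 4247 at 30 min. The 15 macrophage and leukocyte markers had medians of -0.13 in preparation 1, with 13 lower, and 0.25 in preparation 2, with 13 higher (8 on the deposited scale, or 13 relative to all probe sets). Without the array that stood apart the preparation 2 median was 0.40, with 14 higher and 1 lower. Their list level was lowest, at -0.50, in the 10 min array of preparation 2, duplicate 2, and between -0.16 and 0.21 in the other 7. Schwann cell and neuronal markers (4 tested) had a median of 0.14, epicardial markers (5 tested) 0.00 and smooth muscle and pericyte markers (11 tested) 0.03, and 0 erythroid markers passed the filter on dim probe sets.

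The genes with the smallest p in each direction are given as values that did not pass. The 12 on the higher side were Pigl, Aif1, Prph, Smurf1, Phkg1, Mettl7b, Faslg, Krt90, Cldn22, Ppil4, Rdh16 and Cyb561a3, with differences from 0.30 to 1.35 and limma adjusted p from 0.80 to 0.89. Their arrays did not overlap in 7 of the 12, against 4.7% of all probe sets; a small p and an absence of overlap come from the same values. Pigl, an enzyme of GPI anchor synthesis, had 7.66, 8.39, 7.85 and 7.97 at 10 min and 8.45, 8.54, 8.43 and 8.53 at 30 min. The 30 min values lay close together, and the 10 min values did not. Prph, the neuronal intermediate filament peripherin, had 7.45, 7.87, 7.27 and 7.41 at 10 min and 7.97, 8.10, 8.16 and 8.02 at 30 min, a difference of 0.56 ± 0.11 (SE, n = 2). Its mean was 7.97 at 0 min and 7.50 at 60 min, so the 10 and 60 min means were the low ones. Rdh16, a retinol dehydrogenase gene, had 6.18, 5.21, 6.0 and 6.59 at 10 min and 7.77, 6.90, 7.95 and 6.78 at 30 min, the largest difference of the 12 at 1.35 ± 0.31. Aif1, a macrophage marker, had 6.49, 4.0, 6.67 and 5.19 at 10 min and 7.09, 6.87, 7.20 and 6.24 at 30 min. The value of 4.0 is the floor set for negative intensities, and a second Aif1 probe set had a difference of -0.09. A second, brighter Ppil4 probe set had a difference of 0.08, against 0.37 for the one named.

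On the lower side the 12 were Pogz, Vps45, Tti2, Nkiras2, Tulp3, Slc1a4, Ap4b1, Slc46a3, Fpgt, ST7, Ercc6l2 and Gdpd1, with differences from -0.76 to -0.27 and limma adjusted p from 0.80 to 0.93. Their arrays did not overlap in 9 of the 12, against 4.7% of all probe sets in either direction. Here too the small p and the absence of overlap come from the same values. Nkiras2, which binds and holds the inhibitor of NF-kB, had 9.14, 9.13, 9.07 and 9.12 at 10 min and 8.62, 8.61, 8.63 and 8.81 at 30 min, the tightest separation of the set. Tulp3, a ciliary trafficking gene, had 10.11, 10.09, 10.12 and 10.03 at 10 min and 9.87, 9.78, 9.59 and 9.71 at 30 min. Its mean stayed lower at 60 min, 9.62, and was 10.09 at 0 min. Tti2, part of the complex that stabilizes mTOR-family kinases, had 6.86, 7.01, 7.17 and 7.14 at 10 min and 6.33, 6.29, 6.57 and 6.63 at 30 min, a difference of -0.59 ± 0.12 (SE, n = 2). Pogz, a chromatin gene, had a difference of -0.50 ± 0.09, while its other probe set had 0.05. The other, brighter probe set of Gdpd1 had -0.04, against -0.36 for the one named. Those of Fpgt and Ercc6l2 had -0.27 and -0.31. Ap4b1, a subunit of an adaptor complex in vesicle transport, had the largest difference at -0.76 ± 0.18 and 1 array at 5.64 against 6.40 to 6.75 in the other 3 at 30 min. Slc1a4, a neutral amino acid transporter, had -0.36 ± 0.08 here and 0.37 in ischemia alone.

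**Figure D4:**
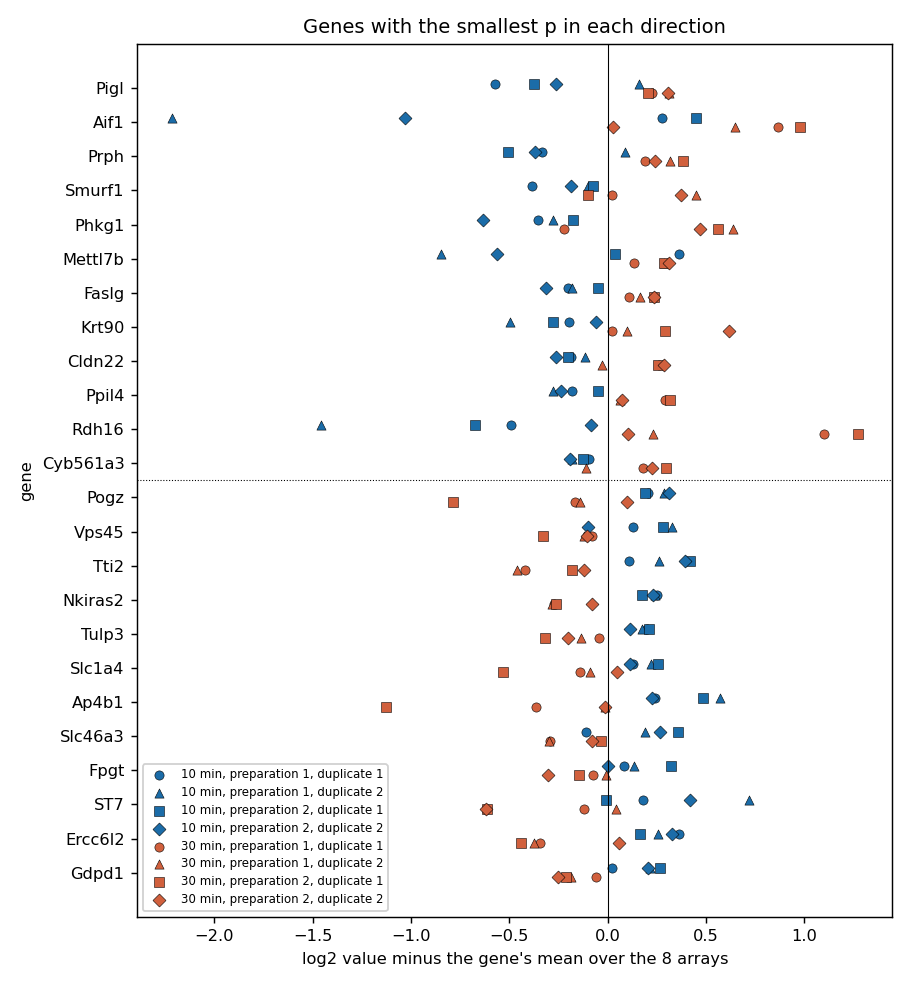
Each line is 1 of the 24 genes with the smallest p, 12 higher above the dotted line and 12 lower below it; the horizontal axis gives each array's log2 value minus the gene's mean over the 8 arrays, with colour for time and shape for preparation and duplicate. The 30 and 10 min points separate fully in 16 of the 24, such as Nkiras2 and Tulp3, and mix in others, such as Aif1 and Mettl7b. Among all probe sets 4.7% separate fully, and these genes were picked by a p from the same values.

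The step from 10 to 30 min was also set against the same step in ischemia alone, where limma called 47 probe sets (0.252%). The difference between the steps, tested as an interaction, passed in 4 probe sets (0.0215%), with 1273 at an unadjusted p under 0.05 (6.83%). They were Irf2, an interferon regulatory factor gene, Gpr12, an orphan G protein-coupled receptor gene, a probe set of the proteasome subunit gene Psmd14, and a probe set that is unnamed here. In all 4 the step in ischemia alone was the larger part. Irf2 had a difference of -0.04 in ischemia+reperfusion and fell by 1.02 in ischemia alone, an interaction of 0.99 ± 0.12 (limma adjusted p = 0.032, and 0.023 without the array that stood apart). Its arrays in ischemia alone were 8.44, 8.53, 8.62 and 8.59 at 10 min and 8.09, 7.20, 7.45 and 7.35 at 30 min. Gpr12 differed by 0.24 in ischemia+reperfusion and fell by 0.70 in ischemia alone, an interaction of 0.94 ± 0.11 (limma adjusted p = 0.032). For the unnamed probe set the interaction was -0.62 ± 0.08 (limma adjusted p = 0.032). Psmd14 had an interaction of -0.76 ± 0.10 (limma adjusted p = 0.046, and 0.40 without the array that stood apart), while its other 2 probe sets had interactions of -0.07 and -0.14. Of 8 fits that each left out 1 of these 8 arrays of ischemia+reperfusion, Irf2 was called in 7, Gpr12 and the unnamed probe set in 6 and Psmd14 in 1. Without the 30 min array of preparation 1, duplicate 2, limma called 0, with an adjusted p of 0.069 for both Irf2 and Gpr12. It also called 0 with arrays centred on the median and 0 on the deposited scale. Single arrays of ischemia alone, where the larger part lay, were not left out, so the 8 fits could not test that part.

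The ischemia 30 min arrays resembled those at 0 and 60 min of ischemia alone in several of these probe sets, and the other groups resembled each other. Mean Irf2 in ischemia alone was 8.04, 7.52 and 7.95 at 0, 30 and 60 min, and 8.55 and 8.58 at 10 and 120 min; in ischemia+reperfusion it ran from 8.41 to 8.78. Gimap6, a GTPase gene of immune cells and the largest of the 5 interactions above zero with the smallest p, had 7.85, 7.41 and 7.96 at 0, 30 and 60 min of ischemia alone. Gimap6 had 9.65 and 8.81 there at 10 and 120 min, and 8.43 to 9.43 in ischemia+reperfusion; its interaction was 2.48 ± 0.40 (limma adjusted p = 0.10). The Psmd14 probe set alternated between duplicates in ischemia+reperfusion, at 9.58, 8.92, 9.67 and 8.88 at 10 min and 9.47, 8.69, 9.51 and 8.81 at 30 min. It did so at 10 min of ischemia alone too, at 9.45, 8.60, 9.33 and 8.64, but not at 30 min, at 9.47, 9.82, 9.64 and 9.58. The part of this grouping of arrays in the 4 calls, and in the 47 calls of ischemia alone, was not tested.

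The remaining genes with the smallest interaction p were Icmt and Trmt9b on the side above zero and Nedd4, Slc46a3, Sync and Ctnnb1 below it, with limma adjusted p from 0.083 to 0.16. Icmt, which methylates prenylated proteins, had 7.33, 7.33, 7.40 and 7.14 at 10 min and 7.87, 7.64, 7.44 and 7.83 at 30 min of ischemia+reperfusion, without overlap, and fell by 0.59 in ischemia alone, while its other probe set differed by -0.30 in ischemia+reperfusion. Nedd4, a ubiquitin ligase gene, and Ctnnb1, β-catenin, had 5 and 2 further probe sets, and those had interactions from -0.24 to 0.06 and from -0.20 to -0.06. Fos, named outside the rule, differed between the arms without a call: it rose by 1.75 ± 0.20 in ischemia alone (limma adjusted p = 0.0064) and differed by 0.05 here, an interaction of -1.69 ± 0.29 (limma adjusted p = 0.12). With arrays taken as samples the same Fos interaction had an adjusted p of 0.00063. Fos means in ischemia+reperfusion were 8.76, 8.87, 8.92, 10.07 and 11.12 over the 5 times, and in ischemia alone 8.53, 9.07, 10.81, 11.31 and 11.36, so a mean above 10 was first seen at 60 min here and at 30 min in ischemia alone.

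**Figure D5:**
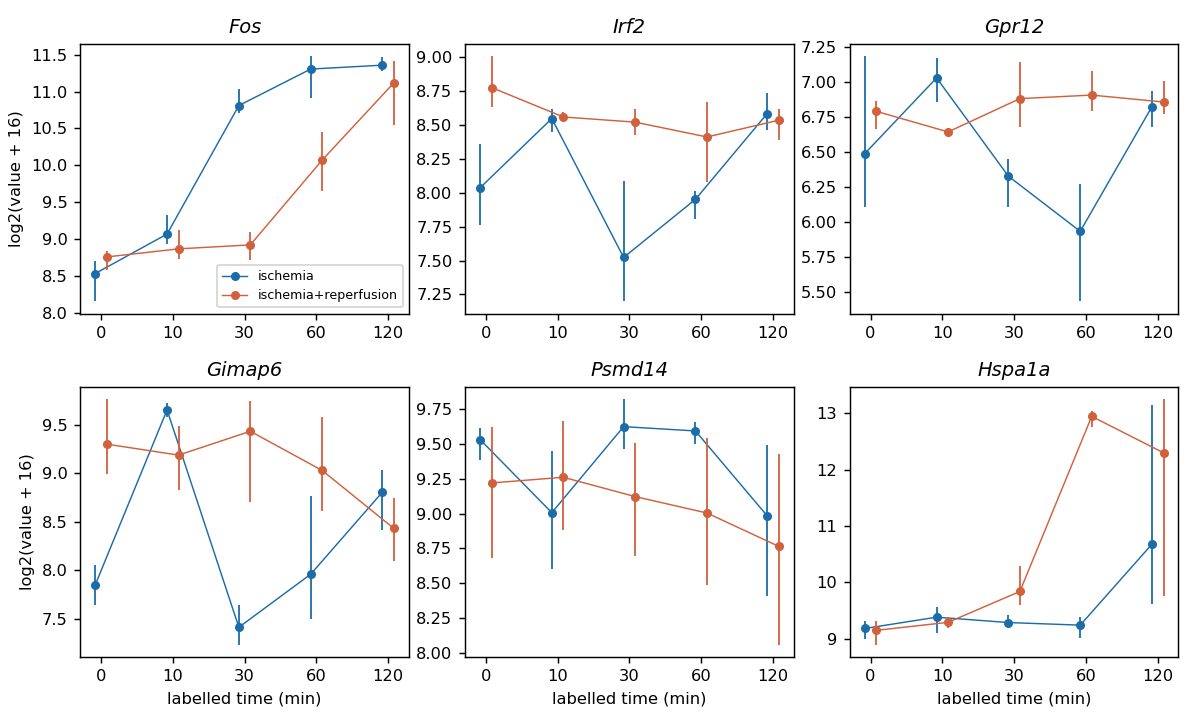
For 6 genes, the vertical axis gives log2(value + 16) and the horizontal axis the labelled time in min, in ischemia (blue) and ischemia+reperfusion (orange); points are means of 2 preparations and bars run from the lowest to the highest of 4 arrays. Fos is near 8.9 at 10 and 30 min of ischemia+reperfusion and at 10.81 by 30 min of ischemia, and Hspa1a at 30 min lies between 10 and 60 min.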

How the data were processed

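Total RNA, extracted on spin columns and labelled with biotin per the labels' protocols, was hybridized to Affymetrix rat genome arrays. The deposited intensities are linear and reach below zero (15.8% of all values); how the authors computed and scaled them was not given in the sources used here. Values of all 40 arrays were quantile-normalized, floored at 0 and transformed as log2(value + 16). The test kept 18625 of 31042 probe sets, those whose mean log2 value exceeded 6.48 (the 40th percentile, intensity 73.2); 14311 of these carry 1 gene symbol (10483 genes), and genes were named only from such probe sets. Of all 31042, 20826 carry 1 symbol, 436 several, and 9780 are unnamed in the platform annotation used here. Promoters came from RefSeq (GRCr8).

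Duplicates were averaged within a preparation, and limma 3.58.1 (R 4.3.3) was fitted over all 10 groups with preparation as an additive block (9 residual degrees of freedom, prior 2.27). Two-sided moderated p-values were adjusted by Benjamini-Hochberg over all probe sets. The code was tested on simulated data. That preparations of the same number were shared between groups was taken from the titles, which do not state it. Preparation differences correlated at a median of 0.18 between groups (-0.18 to 0.53). The correlation was above 0.1 in 34 of 45 pairs, and 0.07 between the 30 and 10 min groups compared here. In the fit with arrays as samples, limma's consensus correlation of duplicates, after the group and preparation terms, was 0.08. That is another measure than the correlations of centred values given above. Identical values were held by 0 pairs of arrays. The number of arrays limits the precision.

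Named genes were the 12 with the smallest p per direction, since 0 were called; in each list the called members or else the 2 with the smallest p; and the 5 smallest interaction p per direction. Lists used the brightest probe set per gene. Fos, Egr1, Hspa1a, Slc2a1, Ankrd37, Ddit4, Vegfa, Uncx, Hmox1 and the unnamed interaction probe set were added after their values were seen. The comparison, lists and tests were chosen with earlier results of these data known. Alternatives were the block, single arrays left out, scaling, filter, pseudocount, only the groups compared, and arrays as samples; the duplicate number as a term and the preparation difference were added after seeing the data.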

Additional observations from a re-analysis of the deposited data

Results flagged for a closer look

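In groups of 4 arrays, 6 of 106 tests for a value far from the rest (Dixon's test at the 95% level) were positive, where chance gives about 1 in 20. At 30 min of ischemia+reperfusion these were Mettl7b in preparation 1, duplicate 1 (7.61), Cldn22 in preparation 1, duplicate 2 (6.94), Nkiras2 in preparation 2, duplicate 2 (8.81) and Gimap6 in preparation 2, duplicate 1 (8.71). At 30 min of ischemia alone it was Icmt in preparation 2, duplicate 2 (6.51). At 10 min of ischemia+reperfusion it was Ankrd37 in preparation 2, duplicate 1 (6.51), the array that stood apart.

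The 30 against 10 min difference itself differed between the arms, by limma's interaction test at an adjusted p under 0.05, for Gpr12 (0.94), Irf2 (0.99), an unnamed probe set (-0.62) and Psmd14 (-0.76).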

How the results depend on the processing

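The count of called probe sets between 30 and 10 min was 0 under all alternatives except no filter on dim probe sets, which gave 1, an unnamed probe set, lower at 30 min. On the deposited scale the median of all probe sets shifted by -0.21, and differences there are read relative to it. Without the replicate block 0 were called and 664 were at an unadjusted p under 0.05, against 862 with it.

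The interaction count of 4 was 1 (Irf2) with no replicate block. It was 0 to 4 with single arrays of ischemia+reperfusion left out, the 0 coming when duplicate 2 of preparation 1 at 30 min was dropped. It was 2 with both arrays of preparation 2, duplicate 1, left out, 6 without 3 arrays of other groups, 0 on the deposited scale, 0 with arrays centred on the median, 10 without a filter and 0 with only the groups compared. It was 14 with arrays as samples and preparation and duplicate number as terms. With arrays as samples it was 5, and 0 of those were among the 4.

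Signs turned in these differences, none of which had passed. With single arrays left out the ranges were Pfkfb3 -0.032 to 0.60, Car9 -0.042 to 0.59, Cox5a -0.035 to 0.34, Rpl30 -0.024 to 0.57, Myh11 -1.47 to 0.17, Krt18 -0.016 to 0.27, Vegfa -0.15 to 0.28, Slc2a1 -0.10 to 0.30, Egr1 -0.20 to 0.078, Ddit4 -0.34 to 0.47, Fos -0.0046 to 0.11, Hmox1 -0.014 to 0.76 and Ankrd37 -0.34 to 0.72. With both arrays of preparation 2, duplicate 1, left out: Pfkfb3 -0.016, Car9 -0.13, Myh11 0.19, Vegfa -0.16, Slc2a1 -0.12, Egr1 0.15, Ddit4 -0.45 and Ankrd37 -0.35. With arrays centred on the median: Fos -0.0048. On the deposited scale: Dnaja1 -0.028, Atf5 -0.12, Xbp1 -0.10, Gstm1 -0.054, Gclm -0.045, Xirp1 -0.10, Rgs3 -0.082, Ndufs4 -0.083, Cox5a -0.077, Acads -0.015, Rpl21 -0.077, Psmd4 -0.065, Psmd1 -0.056, Srsf4 -0.11, Tef -0.041, Bbc3 -0.14, Tfeb -0.090, Sqstm1 -0.030, Eng -0.11, Egfl7 -0.044, Notch3 -0.050, Laptm5 -0.10, Msln -0.056, Krt18 -0.091, Vegfa -0.10, Slc2a1 -0.082, Ddit4 -0.13, Fos -0.18 and Ankrd37 -0.029. The cause was not tested.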
